A study of Brassica rapa subsp. chinensis with 24 samples.

Results

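The CBF and DREB transcription factors were followed through 24 libraries of polyadenylated RNA from Choy-sum, a leaf vegetable of the species Brassica rapa (subsp. chinensis). The members were chosen by identifier, with earlier results of these comparisons known: CBF1 (AT4G25490), CBF2 (AT4G25470), CBF3 (AT4G25480), CBF4 (AT5G51990), DDF1 (AT1G12610), DREB2A (AT5G05410), DREB2B (AT3G11020), DEAR1 (AT3G50260), DEAR3 (AT2G23340) and ICE1 (AT3G26744). Which measured values led to the choice is not stated, so every value and adjusted p below places a member in its table and is not independent support. Of the 10 identifiers 9 were used, with 34 of the 66566 rows of the table, which carry 20564 identifiers in all. The identifier of CBF2 labels no row, so nothing is known of CBF2 here. The identifiers are Arabidopsis locus codes that label Brassica rows, and a code can label several rows, so each gene name stands for the sum of its rows unless a single row is named.

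Wild-type plants grew in pots of peat-moss soil at 22 °C with 16 hours of light and 8 hours of dark. The SAB groups came from seeds dressed with SAB, a mixture of 3 bacterial genera named Streptomyces, Agromyces and Bacillus. The untreated groups came from seeds soaked in magnesium sulfate alone. Each library is of whole root or whole leaf tissue, harvested either on day 18, when plants were mature but not flowering, or on day 8, when they had true leaves. The 8 groups were thus SAB and untreated roots at each day and SAB and untreated leaves at each day, with 3 independent biological replicates per group. The study asked how the growth-promoting consortium alters transcript levels in each organ and at each age.

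CBF and DREB proteins belong to the AP2/ERF family and bind the dehydration-responsive element in promoters of cold and drought genes. In Arabidopsis the DREB1 subgroup, with CBF1, CBF3, CBF4 and DDF1, is induced by cold, drought or salt, and the DREB2 subgroup, with DREB2A and DREB2B, by drought and heat. DEAR1 and DEAR3 belong to a DREB subgroup in which repressors with an EAR motif are known, and ICE1 is a bHLH factor that activates CBF genes in Arabidopsis and also acts in stomatal development.

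Library totals ranged between 28068078 and 37999455 estimated counts, and levels are given as CPM, in which estimated counts are scaled to library size, here after TMM normalization. The tissue labels were checked with 4 leaf and 4 root markers. The leaf marker RBCS1A, a Rubisco small subunit, averaged 22.6 to 97.9 CPM in root groups and 29600 to 76000 CPM in leaf groups. The root marker CASP1, a Casparian strip protein, lay at 104 to 237 CPM in root libraries and at most 0.127 CPM in leaf libraries. Between untreated tissues, all 4 leaf markers were lower and all 4 root markers higher in root at both days. In these whole organs, fewer cells of a type and less RNA per cell cannot be told apart.

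**Figure D1:**
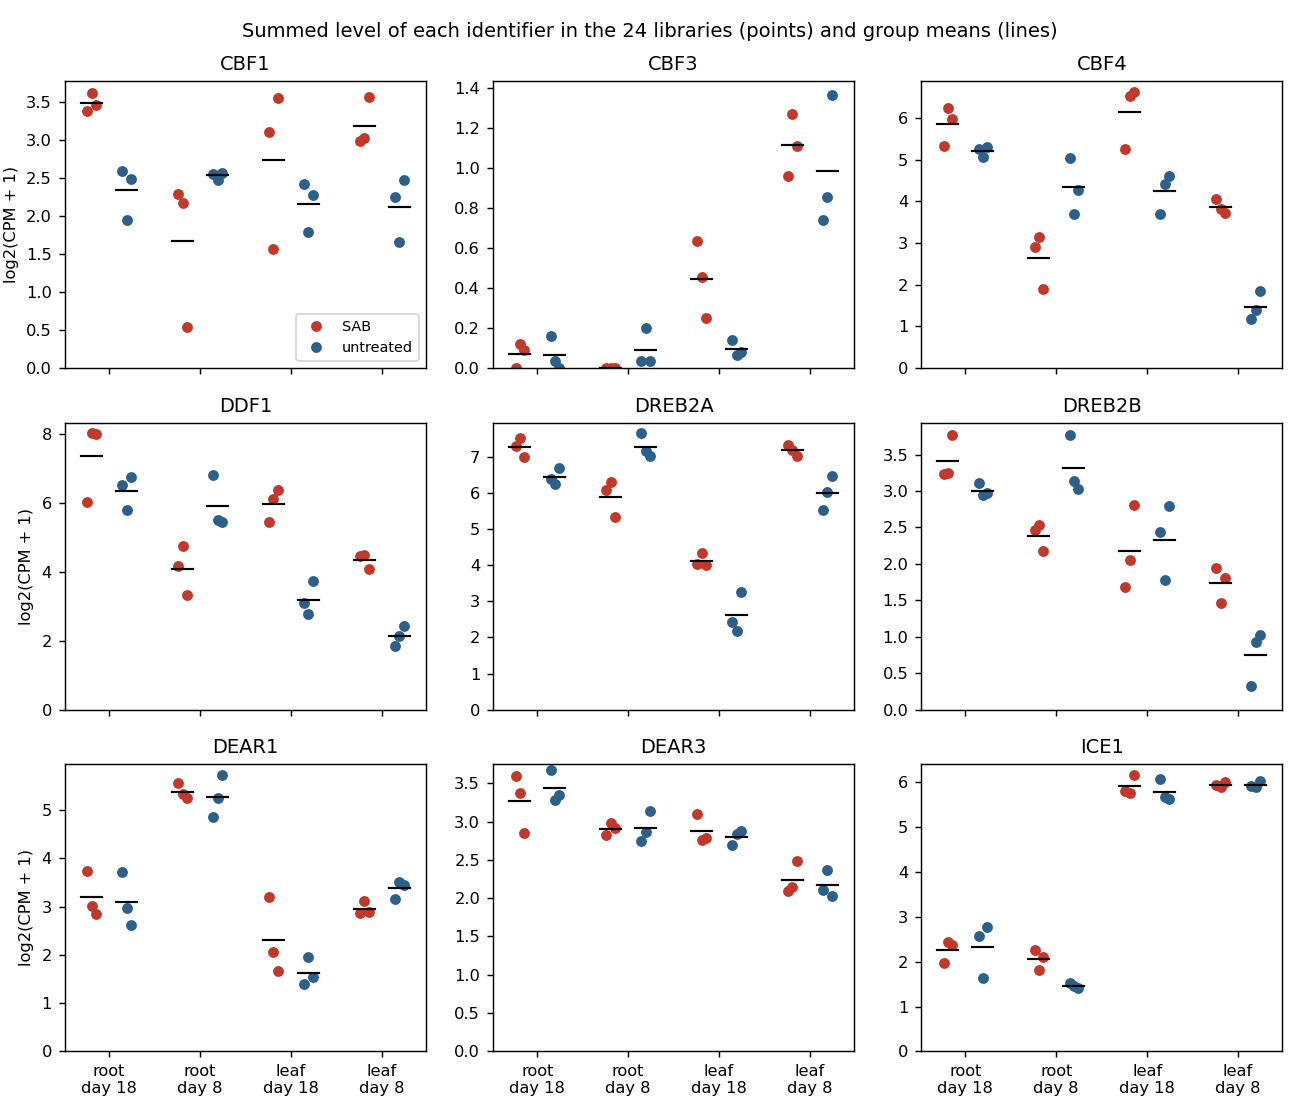
Level of each identifier, as log2(CPM + 1), in the 24 libraries; points are libraries, lines are group means, red is SAB and blue is untreated, and the groups run from roots at day 18 to leaves at day 8. DDF1, CBF4 and DREB2A lie higher in SAB leaves at both days and lower in SAB roots at day 8, and DEAR3 and ICE1 points of both treatments overlap in leaves.

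Among leaves, those of SAB plants had more DDF1 and CBF4 at both days, and more DREB2A and CBF3 at day 18. At day 18, 4 of the 9 members tested were called higher and 0 lower, where 14.4% of all 17706 identifiers were called (edgeR's quasi-likelihood method, with p adjusted by Benjamini-Hochberg and called under 0.05). At day 8, 2 of 9 were called higher and 0 lower, where 0.424% of all identifiers were called. The median log2 fold of the 9 members was 1.07 at day 18 and 1.13 at day 8, beside -0.001 and -0.005 over all identifiers tested.

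DDF1, which in Arabidopsis slows growth by lowering active gibberellin when overproduced, had the smallest adjusted p of the members in leaves at both days. At day 18 it stood at 42.8, 68.1 and 82.3 CPM in SAB leaves, against 7.54, 5.83 and 12.3 CPM in untreated leaves. At day 8 it stood at 21.2, 21.6 and 16.0 CPM in SAB leaves, against 2.59, 3.40 and 4.39 CPM in untreated leaves. The treatments did not overlap at either day, and both were higher at day 18. The log2 fold was 2.94 at day 18 (SE 0.32, edgeR adjusted p = 0.000479) and 2.48 at day 8 (SE 0.33, edgeR adjusted p = 0.0141), and the difference of the 2 folds was 0.46 (SE 0.44, edgeR adjusted p = 0.644).

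CBF4, a drought- and abscisic acid-induced member of the DREB1 subgroup in Arabidopsis, was likewise higher in SAB than in untreated leaves at both days. The day 18 levels were 37.0, 91.0 and 96.6 CPM in SAB leaves, against 11.9, 20.4 and 23.2 CPM in untreated leaves. The day 8 levels were 15.7, 13.1 and 12.2 CPM in SAB leaves, against 1.26, 1.64 and 2.63 CPM in untreated leaves. Again no SAB leaf lay as low as an untreated leaf of the same day, and SAB replicate 1 was the lowest of its group at day 18. The SAB effect in log2 fold was 2.04 at day 18 (SE 0.38, edgeR adjusted p = 0.00586) and 2.85 at day 8 (SE 0.42, edgeR adjusted p = 0.0188). The day 8 calls of DDF1 and CBF4 were both lost without SAB replicate 1, SAB replicate 2, untreated replicate 1 or untreated replicate 2. Their log2 folds then lay at 2.32 to 2.46 for DDF1 and 2.66 to 2.88 for CBF4, with adjusted p of 0.0609 to 0.0792 and 0.0744 to 0.104.

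CBF1 and CBF3 are the cold-induced members of the DREB1 subgroup in Arabidopsis. CBF1 stood at 6.93, 7.12 and 10.8 CPM in SAB leaves at day 8, against 3.75, 2.15 and 4.54 CPM in untreated leaves, without overlap but short of the threshold (log2 fold 1.24, SE 0.52, edgeR adjusted p = 0.504). By day 18 its levels were 7.57, 1.96 and 10.7 CPM in SAB leaves, against 4.36, 2.46 and 3.84 CPM in untreated leaves. SAB replicate 2 lay below every untreated leaf there, and without it the log2 fold of 0.94 (edgeR adjusted p = 0.26) became 1.37 with adjusted p = 0.0366.

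CBF3 never passed 1.58 CPM in any library and was listed at 0 in 5 root libraries. At day 18 it stood at 0.552, 0.372 and 0.190 CPM in SAB leaves, against 0.102, 0.0465 and 0.0596 CPM in untreated leaves. The treatments did not overlap, at levels that rest on few reads. Its log2 fold was 2.37 (SE 0.69, edgeR adjusted p = 0.0431). This call was lost without SAB replicate 1 or 2 or untreated replicate 2 or 3 (adjusted p of 0.0863 to 0.126), with the replicate block (adjusted p = 0.0816) and with all 24 libraries in 1 fit (adjusted p = 0.167), and the log2 fold was 3.02 without untreated replicate 1. At day 8 its log2 fold was 0.20 (SE 0.56, edgeR adjusted p = 0.979).

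DREB2A, the drought and heat factor of the DREB2 subgroup in Arabidopsis, was higher in SAB leaves at day 18. The day 18 levels were 15.2, 19.0 and 14.9 CPM in SAB leaves, against 4.42, 3.49 and 8.51 CPM in untreated leaves. At day 8 it stood at 160, 143 and 128 CPM in SAB leaves, against 44.7, 64.1 and 86.6 CPM in untreated leaves, a difference that DESeq2 called. The treatments did not overlap at either day, while the level of both treatments was far lower at day 18. The log2 fold was 1.61 at day 18 (SE 0.32, edgeR adjusted p = 0.00823) and 1.13 at day 8 (SE 0.30, edgeR adjusted p = 0.19), and the difference of the 2 folds was 0.48 (SE 0.43, edgeR adjusted p = 0.608). DREB2B, its relative, stood at 2.86, 1.75 and 2.50 CPM in SAB leaves at day 8, against 0.249, 0.898 and 1.03 CPM in untreated leaves (log2 fold 1.65, SE 0.54, edgeR adjusted p = 0.337). Its groups overlapped at day 18, where the log2 fold was -0.14 (SE 0.50).

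DEAR1 averaged 4.51 ± 3.19 CPM in SAB leaves against 2.15 ± 0.665 CPM in untreated leaves at day 18 (SD, n = 3 each), with a log2 fold at 1.07 (SE 0.42, edgeR adjusted p = 0.119). SAB replicate 1, at 8.15 CPM, was the highest: without it the log2 fold was 0.31, and without SAB replicate 3 it was 1.39 with adjusted p = 0.037. At day 8 it stood at 6.26, 7.60 and 6.35 CPM in SAB leaves, against 7.93, 10.4 and 9.93 CPM in untreated leaves, without overlap and with a log2 fold at -0.50 (SE 0.40, edgeR adjusted p = 0.824). DEAR3 averaged 6.40 ± 1.00 CPM in SAB leaves against 5.99 ± 0.464 CPM in untreated leaves at day 18, and 3.76 ± 0.714 CPM in SAB leaves against 3.52 ± 0.575 CPM in untreated leaves at day 8 (SD, n = 3 each), with log2 folds of 0.11 (SE 0.19) and 0.08 (SE 0.19). ICE1 averaged 60.0 ± 9.57 CPM in SAB leaves against 55.2 ± 9.71 CPM in untreated leaves at day 18, and 60.8 ± 2.45 CPM in SAB leaves against 61.1 ± 2.95 CPM in untreated leaves at day 8 (SD, n = 3 each). The SEs of these ICE1 folds were 0.14 at both days, around log2 folds of 0.14 and -0.02, neither past the threshold.

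Leaf markers moved with the treatment at day 18. Of the 4, RBCS1A and the light-harvesting protein LHCB1.3 fell in SAB leaves, by 0.76 and 0.98 on the log2 scale (edgeR adjusted p = 0.00758 and 0.00236), and the list's median was -0.57; none was called at day 8, where the median was 0.19. With all 24 libraries in 1 fit neither was called (edgeR adjusted p = 0.516 and 0.462). At day 18 RBCS1A averaged 29600 CPM in leaves of SAB plants, against 50900 CPM in untreated ones, and its part in the members' differences was not tested. Of the 4 root markers, CASP1 reached at most 0.127 CPM in leaves and MYB36 was listed at 0 in 11 of 12 leaf libraries, while PHO1 lay at 2.12 to 12.5 CPM and NRT2.1 at 1.02 to 10.9 CPM in leaf libraries.

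**Figure D2:**
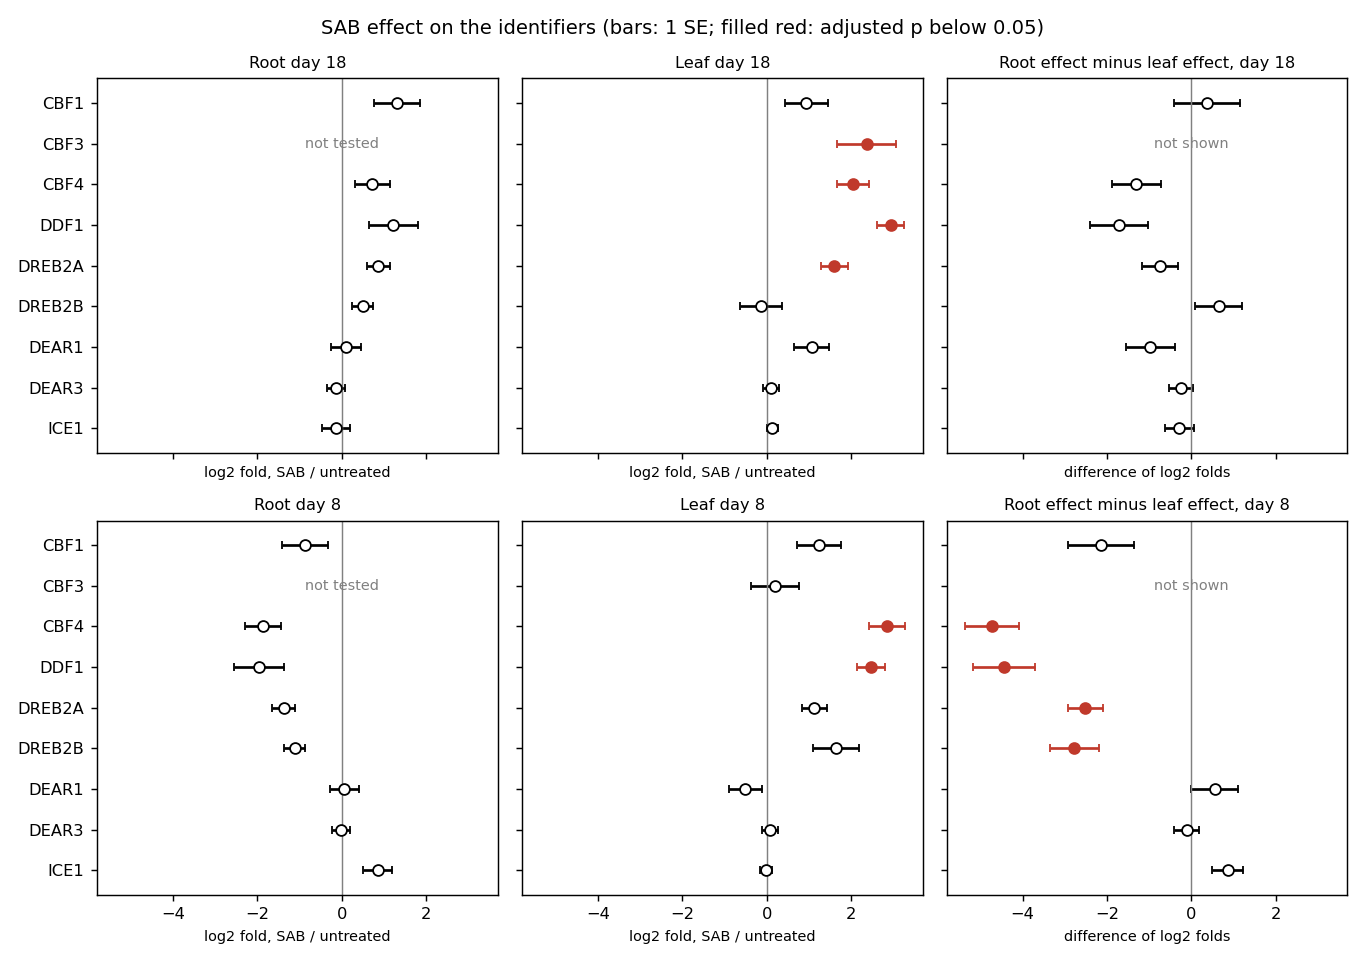
SAB effect on the 9 identifiers, as log2 fold of SAB over untreated, in roots (left), in leaves (middle) and as root effect minus leaf effect (right), at day 18 (top) and day 8 (bottom); bars are 1 SE and filled red points passed the threshold. CBF4, DDF1, DREB2A and DREB2B lie left of 0 in the day 8 difference; CBF3, near 0 in roots, was not tested there and is not shown in the differences.

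In roots no member passed the threshold in edgeR at either day. Of the 8 members tested, 0 were called at day 8, where 0.0738% of 18973 identifiers were called. CBF3 did not pass the filter on low counts. An unadjusted p under 0.05 (edgeR quasi-likelihood test) was reached by 5 members, beside 1948 of all identifiers. They were DREB2A, CBF4, DDF1 and DREB2B, lower in SAB roots, and ICE1, higher. DESeq2 called 4 lower at day 8, DREB2A, CBF4, DDF1 and DREB2B, where it called 52 of all identifiers higher and 487 lower. At day 18, 0 of 8 were called, where 0.764% of identifiers were called. Here 2 members had an unadjusted p under 0.05 in edgeR, beside 2349 of all identifiers. DESeq2 called DREB2A higher, where it called 353 of all identifiers higher and 427 lower. The median log2 fold was 0.61 at day 18 and -1.0 at day 8, beside -0.004 and -0.025 over all identifiers tested.

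DDF1 in roots at day 18 stood at 65.2, 261 and 259 CPM in SAB plants, against 90.7, 55.1 and 108 CPM in untreated plants. The day 8 levels were 17.1, 26.0 and 9.11 CPM in SAB roots, against 113, 44.4 and 42.5 CPM in untreated roots. At day 18 the treatments overlapped through SAB replicate 1. At day 8 they did not overlap and untreated replicate 1 was the highest. The SAB effect in log2 fold was 1.22 at day 18 (SE 0.58, edgeR adjusted p = 0.436) and -1.96 at day 8 (SE 0.60, edgeR adjusted p = 0.24), or -1.31 without untreated replicate 1.

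CBF4 in roots at day 18 stood at 39.1, 74.7 and 62.2 CPM in SAB plants, against 36.8, 32.4 and 38.6 CPM in untreated plants. The day 8 levels were 6.53, 7.79 and 2.72 CPM in SAB roots, against 31.7, 11.9 and 18.4 CPM in untreated roots. Every SAB library lay above the untreated ones at day 18 and below them at day 8. Its log2 fold was 0.72 at day 18 (SE 0.41, edgeR adjusted p = 0.536) and -1.87 at day 8 (SE 0.43, edgeR adjusted p = 0.117).

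DREB2A in roots at day 18 stood at 155, 183 and 127 CPM in SAB plants, against 82.3, 75.1 and 102 CPM in untreated plants. The day 8 levels were 66.3, 77.0 and 39.1 CPM in SAB roots, against 202, 141 and 128 CPM in untreated roots. As for CBF4, the SAB libraries lay above the untreated ones at day 18 and below them at day 8. The log2 fold was 0.86 at day 18 (SE 0.27, edgeR adjusted p = 0.209) and -1.38 at day 8 (SE 0.27, edgeR adjusted p = 0.0851). With all 24 libraries in 1 fit, DREB2A and CBF4 were called lower at day 8 (edgeR adjusted p = 0.0349 and 0.0405).

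DREB2B stood at 8.41, 8.49 and 12.6 CPM in SAB roots at day 18, against 7.60, 6.69 and 6.85 CPM in untreated roots (log2 fold 0.49, SE 0.25, edgeR adjusted p = 0.458). At day 8 it stood at 4.51, 4.78 and 3.52 CPM in SAB roots, against 12.6, 7.83 and 7.18 CPM in untreated roots (log2 fold -1.12, SE 0.25, edgeR adjusted p = 0.106). The treatments did not overlap at either day, and neither did those of CBF1. At day 18 CBF1 stood at 9.40, 11.3 and 9.97 CPM in SAB roots, against 5.03, 2.86 and 4.61 CPM in untreated roots (log2 fold 1.31, SE 0.54, edgeR adjusted p = 0.344). At day 8 CBF1 stood at 3.88, 3.49 and 0.458 CPM in SAB roots, against 4.89, 4.58 and 4.94 CPM in untreated roots (log2 fold -0.88, SE 0.54, edgeR adjusted p = 0.573). SAB replicate 3 was the lowest SAB root of day 8 for CBF1, CBF4, DDF1, DREB2A and DREB2B.

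ICE1 was low in roots and went the other way at day 8, with 3.78, 2.50 and 3.31 CPM in SAB roots, against 1.88, 1.76 and 1.67 CPM in untreated roots (log2 fold 0.85, SE 0.34, edgeR adjusted p = 0.417). DEAR1 averaged 8.55 ± 3.37 CPM in SAB roots and 8.05 ± 3.68 CPM in untreated roots at day 18, and 40.6 ± 4.55 CPM in SAB roots and 38.9 ± 12.2 CPM in untreated roots at day 8 (SD, n = 3 each). DEAR3 averaged 8.90 ± 2.48 CPM in SAB roots and 9.88 ± 1.60 CPM in untreated roots at day 18, and 6.52 ± 0.404 CPM in SAB roots and 6.61 ± 1.11 CPM in untreated roots at day 8 (SD, n = 3 each). The log2 folds of both lay within 0.14 of 0 at both days, with SEs of 0.21 to 0.35. In roots at day 18 the 4 leaf markers had a median log2 fold of -2.04, with 0 called by edgeR or DESeq2 and 3 at an unadjusted p under 0.05 in edgeR. RBCS1A stood at 14.9, 22.7 and 30.3 CPM in SAB roots there, against 90.3, 19.8 and 184 CPM in untreated roots, and its part was not tested.

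The difference of the SAB effect between root and leaf was tested directly with all 24 libraries. At day 8, 4 of 9 members had a lower effect in root than in leaf and 0 a higher one, where 2.08% of 19681 identifiers were called (edgeR quasi-likelihood test). The difference of log2 folds was -4.73 for CBF4 (SE 0.64, edgeR adjusted p = 0.000497) and -4.44 for DDF1 (SE 0.73, edgeR adjusted p = 0.00178). It was -2.51 for DREB2A (SE 0.42, edgeR adjusted p = 0.00198) and -2.77 for DREB2B (SE 0.59, edgeR adjusted p = 0.0134). The 4 are thus members of both the DREB1 and the DREB2 subgroups, each with SAB leaves above and SAB roots below their untreated counterparts in every library. That separation is no further support, since the test used the same libraries. How many of all identifiers separated in this way was not counted. CBF1, which was not called, separated in the same directions. The DDF1 difference was -3.82 without untreated root replicate 1, and the DREB2B call was lost without SAB root replicate 3 (adjusted p = 0.0519). The differences of CBF1, DEAR1, DEAR3 and ICE1 were -2.14 (SE 0.79), 0.55 (SE 0.55), -0.11 (SE 0.29) and 0.86 (SE 0.36), none called. CBF3 is given no difference, since it was listed at 0 in all 3 SAB roots of day 8.

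At day 18 the difference between root and leaf passed the threshold for 0 of 9 members, where 1.02% of identifiers were called. The DESeq2 count was likewise 0. In edgeR 2 members had an unadjusted p under 0.05, beside 2523 of all identifiers. Those 2 were DDF1, with a difference of -1.71 (SE 0.69, edgeR adjusted p = 0.296), and CBF4, with -1.31 (SE 0.58, edgeR adjusted p = 0.346).

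The change of the SAB effect with age, day 18 minus day 8, was tested within each tissue. In leaves 0 of 9 members passed the threshold, where 2.46% of identifiers were called, and DESeq2 called 0. Of the members, 3 had an unadjusted p under 0.05 in edgeR, beside 3210 of all 17706 identifiers. Their differences of log2 folds were 2.17 for CBF3 (SE 0.88), -1.8 for DREB2B (SE 0.74) and 1.57 for DEAR1 (SE 0.58). In roots 1 of 8 was called, where 1.07% of identifiers were called: DREB2A, with a difference of log2 folds of 2.24 (SE 0.38, edgeR adjusted p = 0.0368). DDF1, CBF4 and DREB2B had differences of 3.18 (SE 0.83), 2.6 (SE 0.60) and 1.62 (SE 0.35), with edgeR adjusted p of 0.095, 0.067 and 0.0572. DESeq2 called all 4, where it called 765 of all identifiers higher and 264 lower. The DREB2A call was lost without any 1 of 9 of the 12 root libraries (adjusted p of 0.0526 to 0.108), all but untreated replicates 2 and 3 of day 8 and SAB replicate 1 of day 18, while the difference stayed between 1.99 and 2.44. Without that SAB replicate 1, 4 members were called.

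Members went both ways with age in leaves, and in SAB leaves the share called was close to that of all identifiers. In SAB leaves 3 members were higher and 2 lower at day 18 than at day 8, where 49.4% of identifiers were called, and in untreated leaves 4 were higher and 3 lower, where 40.6% were called. DREB2A fell by 3.11 on the log2 scale in SAB leaves (SE 0.32, edgeR adjusted p = 2.14e-05) and by 3.59 in untreated leaves (SE 0.33, edgeR adjusted p = 1.76e-05). CBF4 rose by 2.48 in SAB leaves (SE 0.38, edgeR adjusted p = 0.000318) and by 3.30 in untreated leaves (SE 0.42, edgeR adjusted p = 0.00015). CBF4 and DREB2A thus went opposite ways with age in both treatments.

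The other leaf calls with age were smaller or rested on lower levels. DDF1 rose by 1.75 in SAB leaves (SE 0.31) and 1.29 in untreated leaves (SE 0.32; not called with all 24 libraries in 1 fit, adjusted p = 0.0653), and DEAR3 by 0.79 in SAB leaves (SE 0.19) and 0.76 in untreated leaves (SE 0.19). DREB2B rose by 2.50 in untreated leaves (SE 0.55, edgeR adjusted p = 0.00414), where it averaged 4.25 ± 1.75 CPM at day 18 and 0.724 ± 0.417 CPM at day 8 (SD, n = 3 each). DEAR1 in SAB leaves had a log2 fold of -0.55 (SE 0.41), or -1.29 with adjusted p = 0.00417 without SAB replicate 1 of day 18. In untreated leaves it fell by 2.12 (SE 0.43, edgeR adjusted p = 0.00255). CBF3 fell by 1.63 in SAB leaves (SE 0.59, edgeR adjusted p = 0.0395), and in untreated leaves it fell by 3.80 (SE 0.69, edgeR adjusted p = 0.00135; log2 fold -4.45 without untreated replicate 1 of day 18). Its day 8 means were 1.17 CPM with SAB and 1.02 CPM without it. The SAB leaf call of CBF3 was lost without any 1 of 5 of the 6 libraries, all but SAB replicate 1 of day 18 (adjusted p of 0.0633 to 0.124). It was also lost with the replicate block (adjusted p = 0.0682), with all 24 libraries in 1 fit (adjusted p = 0.166) and without TMM (adjusted p = 0.0937).

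In roots the calls with age were mostly in SAB plants. In SAB roots 5 of 8 were higher and 1 lower at day 18, where 27.5% of identifiers were called, and in untreated roots 1 was higher and 1 lower, where 16.5% were called. In SAB roots DDF1 rose by 3.55 (SE 0.64), CBF4 by 3.43 (SE 0.46), CBF1 by 2.03 (SE 0.55), DREB2A by 1.41 (SE 0.27) and DREB2B by 1.26 (SE 0.25), with edgeR adjusted p of 0.000381 to 0.0187. The CBF1 call was lost without SAB replicate 2 of day 18 (adjusted p = 0.0503). In untreated roots the log2 folds of these 5 were 0.37 (SE 0.58), 0.83 (SE 0.42), -0.17 (SE 0.53), -0.83 (SE 0.27) and -0.36 (SE 0.25), none called by edgeR. DREB2A was called there by DESeq2 (adjusted p = 0.0162), and by edgeR without untreated replicate 3 of day 8 (log2 fold -0.98, adjusted p = 0.045). The test of the difference between the treatments is the change of the SAB effect above, which passed for DREB2A alone. DEAR1 fell by 2.19 in SAB roots (SE 0.36) and by 2.22 in untreated roots (SE 0.36). ICE1 rose by 1.32 in untreated roots (SE 0.34, edgeR adjusted p = 0.0237), a call lost without untreated replicates 2 or 3 of day 8 or 1 or 3 of day 18 (adjusted p of 0.0632 to 0.088).

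Clock genes differed between the days along with these members. CCA1, a morning clock factor that gates CBF genes in Arabidopsis, stood at 133, 146 and 101 CPM in SAB leaves at day 18, against 3.57, 2.94 and 4.62 CPM at day 8. In untreated leaves it stood at 134, 117 and 148 CPM at day 18, against 3.53, 2.14 and 2.43 CPM at day 8. Its partner LHY rose by 6.68 on the log2 scale in SAB leaves (SE 0.52; 7.44 without SAB replicate 3 of day 8) and by 6.30 in untreated leaves (SE 0.51), and both rose in roots too. The hour of harvest is not given in the sources used here, and the part of the clock state in the members' differences with age was not tested. Neither CCA1 nor LHY was called by edgeR between SAB and untreated plants in any tissue or day. In roots of day 8, however, both lay higher in every SAB library, CCA1 with a log2 fold at 0.72 (SE 0.17, edgeR adjusted p = 0.137; called by DESeq2, adjusted p = 0.0131) and LHY with 0.74 (SE 0.24, edgeR adjusted p = 0.264).

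Members lay both higher and lower in root than in leaf, and at day 18 the share called was close to that of all identifiers. In untreated plants at day 8, 6 members were higher and 2 lower in root than in leaf, where 61.6% of identifiers were called. At day 18, 4 were higher and 1 lower, where 61.5% were called. ICE1 lay far lower in root: it averaged 1.77 ± 0.106 CPM in untreated roots and 61.1 ± 2.95 CPM in untreated leaves at day 8, and 4.32 ± 1.97 CPM in untreated roots and 55.2 ± 9.71 CPM in untreated leaves at day 18 (SD, n = 3 each). The ratio of root to leaf, on the log2 scale, was -5.11 (SE 0.30, edgeR adjusted p = 1.24e-11) at day 8 and -3.68 (SE 0.27, edgeR adjusted p = 5.52e-10) at day 18. CBF3 was lower in root at day 8, where 3 untreated roots held 0.027, 0.148 and 0.0256 CPM, against 0.674, 0.808 and 1.58 CPM in untreated leaves (edgeR adjusted p = 0.00338).

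In untreated plants DDF1 exceeded its leaf level in root by 4.26 at day 8 (SE 0.57; 3.65 without untreated root replicate 1) and 3.31 at day 18 (SE 0.53) on the log2 scale. DREB2A was higher by 1.27 at day 8 (SE 0.30) and 3.99 at day 18 (SE 0.34), DEAR1 by 2.05 (SE 0.40) and 1.90 (SE 0.42), and DEAR3 by 0.91 (SE 0.21) and 0.72 (SE 0.21). CBF4 and DREB2B were higher in root at day 8, by 3.46 (SE 0.48) and 3.63 (SE 0.45). At day 18 their log2 folds were 0.96 (SE 0.41, edgeR adjusted p = 0.0514) and 0.73 (SE 0.40, edgeR adjusted p = 0.117). There, root and leaf libraries with equal replicate numbers deviated together. With root and leaf of equal treatment, day and replicate number as a block, CBF4 was called (log2 fold 1.00, edgeR adjusted p = 0.0209). This block also joined the day 8 libraries. CBF1 did not pass at either day, with 0.47 (SE 0.56) and 0.23 (SE 0.56).

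The order of the 8 groups differed between members. DDF1 ran, by mean CPM, from SAB roots at day 18 (195 ± 113) and untreated roots at day 18 (84.7 ± 27.1), untreated roots at day 8 (66.7 ± 40.3) and SAB leaves at day 18 (64.4 ± 20.0) down to SAB leaves at day 8 (19.6 ± 3.14), SAB roots at day 8 (17.4 ± 8.45), untreated leaves at day 18 (8.55 ± 3.35) and untreated leaves at day 8 (3.46 ± 0.898). DREB2A ran from untreated roots at day 8 (157 ± 39.7), SAB roots at day 18 (155 ± 27.9) and SAB leaves at day 8 (144 ± 16.4) down to SAB leaves at day 18 (16.3 ± 2.30) and untreated leaves at day 18 (5.47 ± 2.67). Among these, neighbours closer than their SDs, such as the 3 highest DREB2A groups, were not told apart. Over the 24 libraries, as a description, DDF1 and CBF4 had a Pearson r of 0.847 in log2(CPM + 1), DDF1 and DREB2B 0.815, and DREB2A and CBF4 -0.0324. The points share tissue, age and depth.

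Single rows showed where the sums came from. Of the 34 rows, 28 reached a group mean of 1 CPM. CBF4 was 1 row in effect, with 99.9% of its summed CPM in row 2, while the largest of 11 DREB2A rows held 21.4%, the largest of 9 ICE1 rows 41.0%, and the largest rows of CBF1, DREB2B and DEAR3 66.1%, 47.7% and 77.9%. It is not stated whether the rows of an identifier are gene copies or forms of 1 gene, and the estimation may split reads among rows that are nearly identical.

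In the fit of single rows, 4 of 28 member rows were called higher and 0 lower in SAB leaves at day 18, where 5.47% of 46762 rows were called (edgeR quasi-likelihood test). They were row 1 of DDF1 and row 2 of CBF4, with log2 folds of 2.93 (SE 0.34) and 2.03, and rows 10 and 11 of DREB2A. DREB2A row 10 stood at 2.4, 2.69 and 5.13 CPM in SAB leaves, against 0.261, 0.240 and 0.607 CPM in untreated leaves (log2 fold 3.28, SE 0.50, edgeR adjusted p = 0.00695). DREB2A row 11 stood at 5.24, 3.04 and 1.07 CPM in SAB leaves, against 0.220, 0.0394 and 0.540 CPM in untreated leaves (log2 fold 3.59, SE 0.82, edgeR adjusted p = 0.0351). No other DREB2A row was called by edgeR, and no difference between rows was tested. Row 1, the only DREB2A row with a log2 fold under 0.1 at an SE under 0.5, stood at 0.394, 1.38 and 1.73 CPM in SAB leaves, against 1.11, 0.873 and 1.39 CPM in untreated leaves (log2 fold 0.07, SE 0.43); it was singled out after its values were seen. The call of DREB2A row 11 was lost without SAB replicate 1 or 2 or untreated replicate 1 or 2 and with the replicate block (adjusted p of 0.0662 to 0.12 and 0.0896; log2 fold 4.67 without untreated replicate 3 and 3.00 without SAB replicate 1). That of CBF4 row 2 was lost without SAB replicate 2 or 3 or untreated replicate 1 or 2 (adjusted p of 0.0558 to 0.0742).

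At day 8, 0 of 28 member rows were called in leaves, where 0.047% of rows were called, DESeq2 called 4, and 2916 of all rows had an unadjusted p under 0.05 in edgeR. In roots at day 8, 0 of 25 were called, where 0.0% of 52257 rows were called (0 in edgeR, with 3663 at an unadjusted p under 0.05). DESeq2 called 5 member rows there, and 110 of all rows higher and 848 lower. Several DREB2A rows lay lower in SAB roots of day 8 in every library: row 5 stood at 9.70, 12.8 and 6.81 CPM in SAB roots, against 33.3, 23.7 and 29.4 CPM in untreated roots (log2 fold -1.61, SE 0.28, edgeR adjusted p = 0.178). Row 1 stood at 3.13, 4.13 and 2.77 CPM in SAB roots, against 8.17, 7.30 and 8.20 CPM in untreated roots (log2 fold -1.28, SE 0.21, edgeR adjusted p = 0.152). Row 1 thus differed without overlap in roots of day 8, and overlapped in leaves of day 18.

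In roots at day 18, 1 of 25 member rows was called, where 0.388% of rows were called: row 2 of DEAR3. It was listed at 0 in all 3 SAB roots, against 3.56, 3.20 and 3.29 CPM in untreated roots (edgeR adjusted p = 0.00106), at least 9.14-fold lower against a floor of 3 times the row's smallest value above 0, or 0.366 CPM over the SAB group. In leaves at day 18 the same row stood at 0, 0 and 0.185 CPM in SAB plants, against 2.27, 1.91 and 2.24 CPM in untreated plants (edgeR adjusted p = 0.0539; 0.00645 without SAB replicate 3). At day 8 it averaged 1.80 ± 0.456 CPM in SAB roots and 1.60 ± 0.390 CPM in untreated roots, and 1.23 ± 0.551 CPM in SAB leaves against 1.22 ± 0.586 CPM in untreated leaves (SD, n = 3 each). The row was thus at or near 0 in SAB plants of day 18 in both organs and present in the other groups. Row 1 of DEAR3 stood at 7.56, 5.77 and 5.70 CPM in SAB leaves at day 18, against 3.20, 4.26 and 4.10 CPM in untreated leaves (log2 fold 0.73, SE 0.21, edgeR adjusted p = 0.0868). In roots of day 18 it stood at 11.1, 9.32 and 6.24 CPM in SAB plants, against 8.15, 5.56 and 5.89 CPM in untreated plants (log2 fold 0.47, SE 0.27). The sum of both rows overlapped between treatments, with a log2 fold at -0.14 (SE 0.21) in roots. DREB2B row 1 stood at 4.57, 7.51 and 4.52 CPM in SAB roots of day 18, against 2.61, 2.36 and 1.98 CPM in untreated roots. Its log2 fold was 1.28 (SE 0.29, edgeR adjusted p = 0.146). DESeq2 called it (adjusted p = 0.000745), where it called 948 of all rows higher and 1215 lower. DREB2B rows 2 and 3 had log2 folds of -0.33 (SE 0.90) and 0.96 (SE 0.81).

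**Figure D3:**
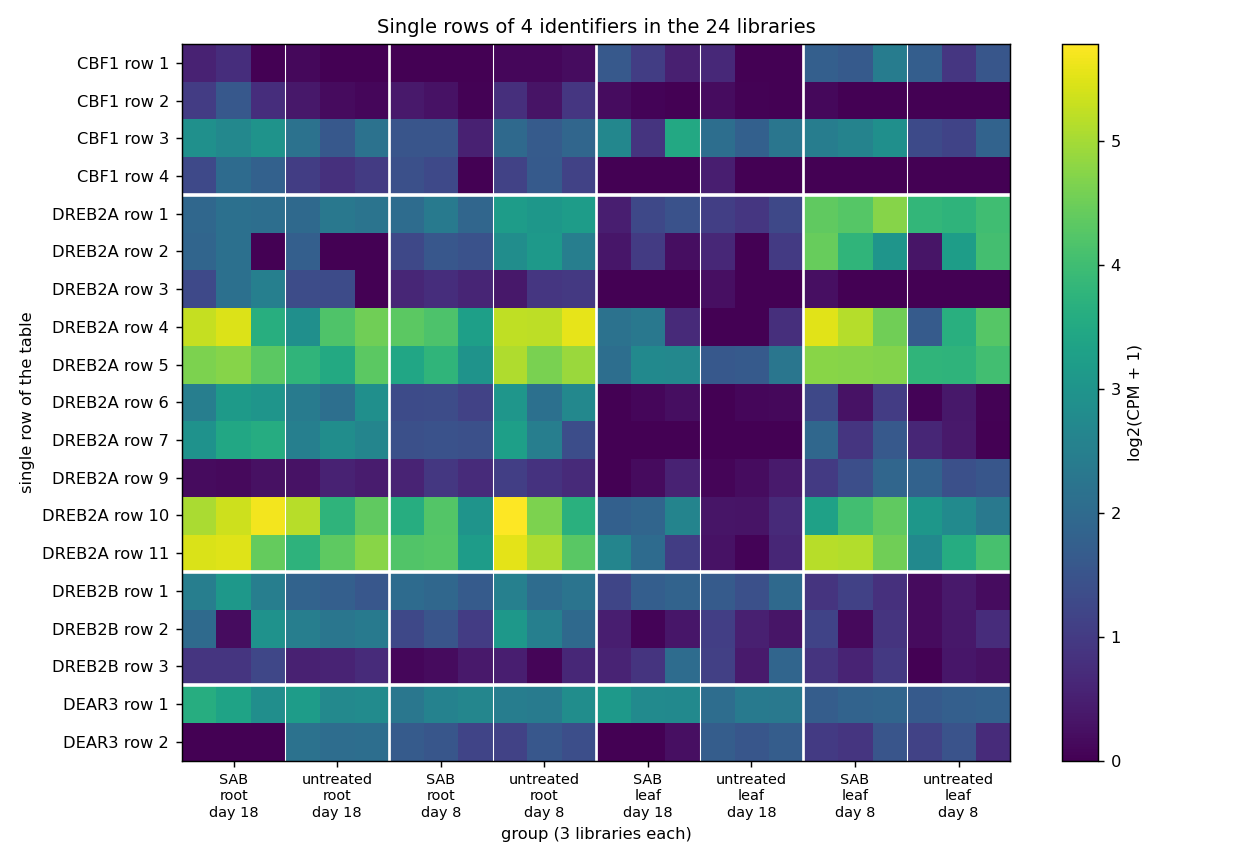
Single rows of CBF1, DREB2A, DREB2B and DEAR3 that reached a group mean of 1 CPM, as log2(CPM + 1), in 24 libraries grouped by 3 with SAB left of untreated. DEAR3 row 2 is dark in SAB leaves and SAB roots of day 18, and DREB2A rows 10 and 11 are brighter in SAB than in untreated leaves of day 18.

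Of 15 listed genes that CBF factors or DREB2A are known to activate in Arabidopsis, 9 were measured. The rest, COR15A, LTI30, KIN1, RD29A, COR413IM1 and LEA7, label no row, so nothing is known of them here. In SAB leaves at day 18, 2 of 9 rose, 0 fell and 7 missed the threshold, where 14.4% of all identifiers were called. The median of the list was 0.55 (log2 fold), beside -0.001 over all identifiers, and 8 of 9 targets had a log2 fold above 0. An unadjusted p under 0.05 in edgeR was reached by 5 targets, beside 5065 of all 17706 identifiers. DESeq2 called 3 targets, where it called 1836 of all identifiers higher and 1678 lower. The dehydrin ERD10 stood at 2000, 1890 and 2240 CPM in SAB leaves, against 883, 1170 and 1200 CPM in untreated leaves (log2 fold 0.93, SE 0.13, edgeR adjusted p = 0.00131). The small cold-induced protein KIN2 stood at 39.2, 16.6 and 36.0 CPM in SAB leaves, against 8.15, 10.1 and 3.99 CPM in untreated leaves (log2 fold 2.05, SE 0.39, edgeR adjusted p = 0.00685). Neither overlapped between treatments, and the KIN2 call was lost with all 24 libraries in 1 fit (edgeR adjusted p = 0.0533). At day 8, 0 of 9 were called in leaves with a median of 0.06 (2 at an unadjusted p under 0.05 in edgeR, and 0 called by DESeq2), and ERD10 had a log2 fold of 0.01 (SE 0.13). ERD10 and KIN2 overlapped between treatments at day 8. HSFA3, a heat factor that DREB2A activates in Arabidopsis, lay higher in every SAB leaf of day 8 (log2 fold 0.64, SE 0.20, edgeR adjusted p = 0.292), and GOLS3, a galactinol synthase, lower in every one (log2 fold -1.95, SE 0.53, edgeR adjusted p = 0.201); both are named here after their values were seen.

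The change of the leaf effect with age passed for 2 of 9 targets, where 2.46% of identifiers were called: ERD10 with 0.92 (SE 0.18, edgeR adjusted p = 0.0339) and GOLS3 with 2.83 (SE 0.63, edgeR adjusted p = 0.0468). The ERD10 call held in 5 of the 12 repeats that each left out 1 leaf library (adjusted p of 0.0346 to 0.0904) and was lost with the replicate block (adjusted p = 0.0617). The GOLS3 call held in 2 of the 12 (adjusted p of 0.0268 to 0.121) and was lost with all 24 libraries in 1 fit (adjusted p = 0.255) and with no filter (adjusted p = 0.0503). GOLS3 stood at 0.112, 0.136 and 0.0639 CPM in SAB leaves at day 8, against 0.293, 0.467 and 0.470 CPM in untreated leaves, levels that rest on few reads. In roots 0 of 7 targets tested were called at either day, with medians of 0.03 at day 18 and -0.26 at day 8, and 1 at each day had an unadjusted p under 0.05 in edgeR. DESeq2 called 0 at day 18 and at day 8 ERD10 as lower in SAB roots (log2 fold -0.52, adjusted p = 0.0473).

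Of 14 upstream regulators, 1 rose in SAB leaves at day 18 and 13 missed the threshold, where 14.4% of all identifiers were called, the list's median being 0.26 (log2 fold). An unadjusted p under 0.05 in edgeR was reached by 7 of the 14, beside 5065 of all 17706 identifiers. DESeq2 called 4 of the 14, where it called 1836 of all identifiers higher and 1678 lower. The 1 that edgeR called was MYB15, a repressor of CBF genes in Arabidopsis. It stood at 24.3, 35.7 and 24.4 CPM in SAB leaves, against 12.3, 7.24 and 8.12 CPM in untreated leaves (log2 fold 1.63, SE 0.28, edgeR adjusted p = 0.00464). At day 8, 0 of 14 were called with a median of -0.04, 1 at an unadjusted p under 0.05; this was MYB15, with a log2 fold at 1.45 (SE 0.29, edgeR adjusted p = 0.0711; 0.0366 with all 24 libraries, and 0.000246 in DESeq2). In roots 0 of 13 were called at either day, with medians of -0.10 at day 18 and 0.21 at day 8 (0 and 3 at an unadjusted p under 0.05 in edgeR, and 0 and 2 called by DESeq2). MYB15 stood at 76.1, 85.4 and 41.8 CPM in SAB roots at day 8, against 311, 160 and 163 CPM in untreated roots (log2 fold -1.65, SE 0.31, edgeR adjusted p = 0.0851, called with all 24 libraries and in DESeq2). Its root effect was lower than its leaf effect at day 8 by 3.11 on the log2 scale (SE 0.44, edgeR adjusted p = 0.0005). At day 8 the signs of MYB15 in leaves and roots were those of CBF4, DDF1, DREB2A and DREB2B. In leaves at day 18 DREB2B had a log2 fold of -0.14 (SE 0.50), without the sign of MYB15. The part of MYB15 in the levels of these members was not tested.

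Of 13 other DREB family genes, 10 were measured. DDF2, the close relative of DDF1, was the 1 of 7 tested that rose in SAB leaves at each day, where 14.4% and 0.424% of all identifiers were called at day 18 and day 8, with list medians of 0.30 and -0.29. It stood at 1.36, 1.44 and 1.22 CPM in SAB leaves at day 8, against 0, 0.0385 and 0.0769 CPM in untreated leaves (edgeR adjusted p = 0.0472). By day 18 its levels were 1.02, 2.77 and 3.86 CPM in SAB leaves, against 0.289, 0.0789 and 0.0499 CPM in untreated leaves (edgeR adjusted p = 0.00619). The treatments did not overlap, but untreated leaves rest on a few reads, so no fold is given. The day 8 call was lost without any 1 of the 6 libraries (adjusted p of 0.0903 to 0.22). In roots 0 of 8 were called at either day, with medians of 0.13 at day 18 and -0.57 at day 8 (2 and 4 at an unadjusted p under 0.05 in edgeR, and 0 and 1 called by DESeq2).

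**Figure D4:**
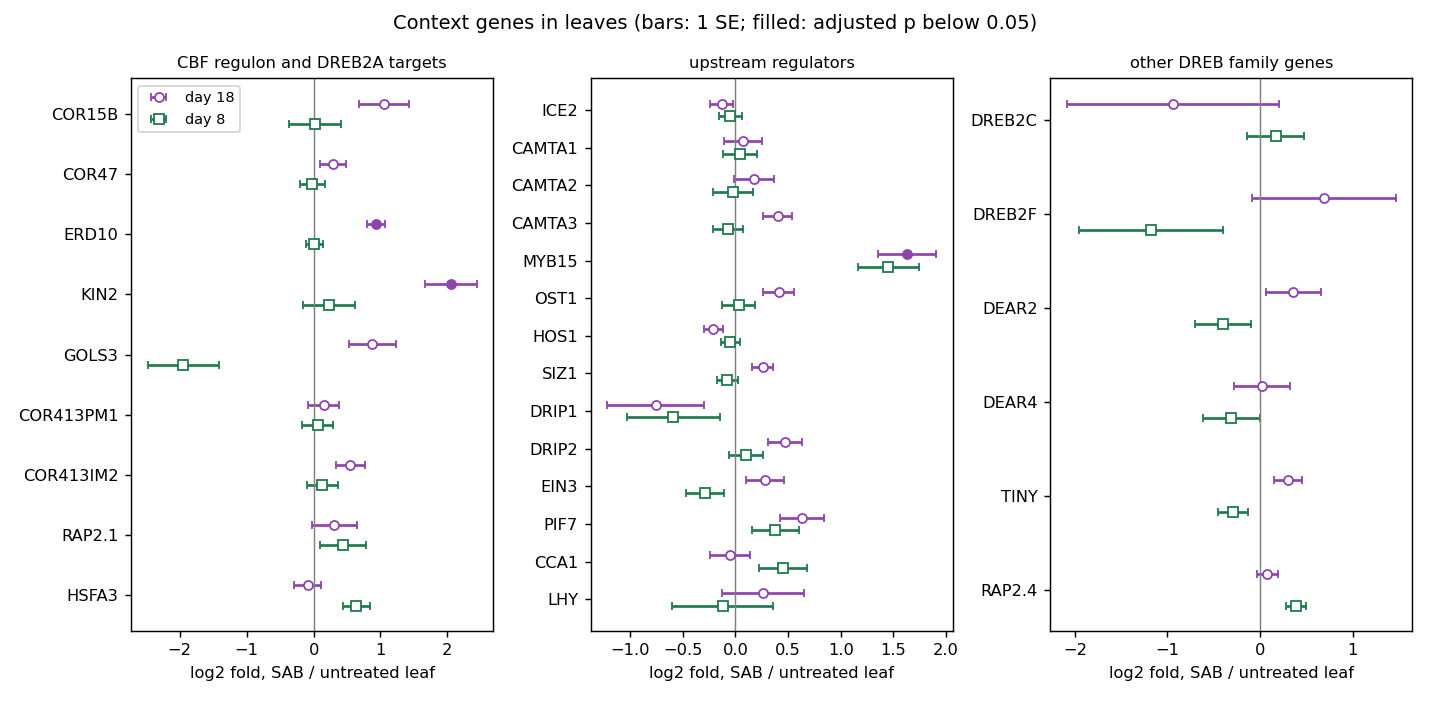
Log2 fold of SAB over untreated leaves for targets, upstream regulators and other DREB family genes (1 panel each), at day 18 (circles) and day 8 (squares); bars are 1 SE and filled points passed the threshold. ERD10, KIN2 and MYB15 are the filled points, all at day 18, and DDF2, near 0 in untreated leaves, is left out.

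The genes most like DREB2A over the 24 libraries, of 15961 candidates that reached a group mean of 5 CPM, were AT3G52520, AT2G41010 and AT4G33985, with Pearson r of 0.93, 0.926 and 0.92 in log2(CPM + 1). Those most like the sum of CBF1 and CBF3 were AT2G30500, AT3G54620 and AT5G46295, with r of 0.801, 0.717 and 0.712. These are descriptions over libraries that share tissue, age and treatment.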

How the data were processed

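Per the labels' protocols, libraries of polyadenylated RNA gave paired reads, each 100 bases long. Estimated counts for 24 libraries were deposited in a single table. Per the submitters' processing notes, the tools were Trim Galore, Bowtie2 and kallisto; what each did, its version, the index and the annotation are not given here. Of the deposited values above 0, 0.99% are whole, so estimated counts were rounded before testing. Low rows lie near multiples of a row's own step, so 1 read can be worth more than 1 unit, and a low level is less precise than its value implies. No pair of libraries held identical values.

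Rows were summed per identifier, and single rows were fitted too. Tests used the quasi-likelihood method of edgeR 4.0.16, run in R 4.3.3 beside limma 3.58.1, with TMM scaling, its default filter (minimum count 10, total 15) and Benjamini-Hochberg adjustment over all identifiers or rows tested, at 0.05. Leaf and root were fitted apart, 12 libraries each, and together (24) for comparisons between them. The SE was taken as the absolute log2 fold over the root of F. Alternatives were DESeq2 1.42.0, RLE scaling, no filter, a replicate block, all 24 libraries, each library left out, and, chosen after seeing the data, library totals without TMM. In fits of 1 tissue the replicate block was the replicate number. In fits of both tissues it joined root and leaf of equal treatment, day and replicate number. The fitting code was also run on simulated counts, and no value here rests on that.

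The members, gene lists and tests were chosen with earlier results of these data known. Every member in the table is named. Of each list and SAB comparison up to 4 called identifiers with the largest log2 fold are named. Of the single rows that reached a group mean of 1 CPM, those called by edgeR and some others are described. The rows of ICE1 and CBF1 are not described singly. Of the 20564 identifiers 0 matched the RefSeq gene table (assembly CAAS_Brap_v3.01), so names are the standard Arabidopsis ones for each code. Same-numbered SAB and untreated libraries had correlations of deviations of -0.0701 to 0.205, and day 18 and day 8 libraries -0.16 to 0.0373. Same-numbered root and leaf libraries had 0.386 to 0.478 at day 18, where they deviated together, and 0.00746 to 0.155 at day 8. Correlations between unequal numbers were not computed, so the low values do not show that libraries were unpaired. The main fits used no pairing, at day 18 too.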

Additional observations from a re-analysis of the deposited data

Results flagged for a closer look

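The SAB effect differed between root and leaf at day 8, by the test of that difference over all 24 libraries, for 4 members. The root effect minus the leaf effect, in log2 folds, was -4.73 for CBF4 (edgeR adjusted p = 0.000497), -4.44 for DDF1 (edgeR adjusted p = 0.00178), -2.51 for DREB2A (edgeR adjusted p = 0.00198) and -2.77 for DREB2B (edgeR adjusted p = 0.0134). In each of the 4, SAB roots lay below untreated roots in 3 of 3 libraries and SAB leaves above untreated leaves in 3 of 3. The test used the same libraries, so this separation is no further support, and how many of all identifiers separated so was not counted. CBF1, which was not called, separated in the same directions.

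The SAB effect in roots differed between day 18 and day 8 for DREB2A, by 2.24 in log2 folds (edgeR adjusted p = 0.0368), with SAB libraries above untreated ones at day 18 and below them at day 8. This call held in 3 of the 12 repeats that left out 1 library, and was lost with the replicate block (edgeR adjusted p = 0.0728). DDF1 and CBF4, not called by edgeR, had larger differences of 3.18 (SE 0.83) and 2.6 (SE 0.60), so the change is not particular to DREB2A.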

How the results depend on the processing

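No called value changed sign under any alternative run. Under DESeq2, 4 members were called in roots at day 8 (0 in edgeR) and 1 in roots at day 18 (0). It called 4 in the change of the root effect (1) and 4 with age in untreated roots (2). Member rows called in leaves were 4 at day 8 (0) and 8 at day 18 (4). In roots they were 5 at day 8 (0) and 2 at day 18 (1). Over all identifiers DESeq2 called 52 higher and 487 lower in roots at day 8 (edgeR 1 and 13). At day 18 it called 353 and 427 (38 and 107). For the change of the root effect it called 765 and 264 (156 and 47). With age in untreated roots it called 2203 and 2254 (1560 and 1566). Of all rows it called 587 and 146 in leaves at day 8 and 3195 and 2891 at day 18. In roots it called 110 and 848 rows at day 8 and 948 and 1215 at day 18. With all 24 libraries in 1 fit, 3 members in leaves at day 18 (4), 2 members in roots at day 8, 3 in the change of the root effect, 2 member rows in leaves at day 8 and 1 in roots at day 8 were called. Of all 19681 identifiers that fit called 1415 higher and 1039 lower in leaves at day 18, and 10 and 184 in roots at day 8. It called 323 and 120 in the change of the root effect. Of all 57445 rows it called 66 and 9 in leaves at day 8 and 10 and 56 in roots at day 8. RLE scaling called 1 member row in leaves at day 8, where it called 34 of all rows higher and 0 lower. With the replicate block, 3 members (4) and 3 member rows (4) were called in leaves at day 18. Of all identifiers 1192 were called higher and 948 lower there, and of all rows 904 and 703. In the change of the root effect the block gave 0 members (DREB2A 2.21, edgeR adjusted p = 0.0728), with 5 and 3 of all identifiers called. CBF3 in leaves at day 18 had an edgeR adjusted p of 0.0816 with the block. Counts over all identifiers are not given here for the repeats that left out 1 library. These repeats gave 0 to 2 members in leaves at day 8 and 0 to 4 in the change of the root effect. They gave 1 to 2 members with age in untreated roots, and 2 to 5 member rows in leaves at day 18. The cause was not tested.

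Of 62 called folds of members and named list genes, 62 stayed called under DESeq2 or RLE scaling, 61 with no filter, 60 without TMM and 57 with the block. With all 24 libraries, 37 stayed called and 7 were lost, and of the repeats that left out 1 library 365 kept the call and 55 lost it. Without TMM the median log2 fold of all identifiers became 0.809 and 0.859 for root against leaf (0.058 and 0.099 with TMM), 0.167 for SAB leaves at day 18 and 0.33 for SAB leaves with age. Calls in SAB leaves at day 18 then split into 2273 higher and 611 lower, against 1401 and 1154 with TMM. Higher and lower calls then split into 11311 and 3315 for root against leaf at day 8 (6430 and 5698 with TMM), 11656 and 3356 at day 18 (6574 and 5520), 6648 and 2892 for SAB leaves with age (4576 and 4175) and 2392 and 3329 for SAB roots with age (2910 and 2299). They split into 571 and 156 for the change of the leaf effect (175 and 260), 103 and 77 for that of the root effect (156 and 47), and 51 and 440 for the root minus leaf difference at day 18 (63 and 138). CBF4 and DREB2B were then also called higher in root at day 18. Depth limits CBF3 and DDF2, and 3 libraries per group limit every test.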
